A study of Mus musculus with 6 samples.

Results

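Semaphorins are a family of secreted and membrane-bound guidance proteins, plexins are their main receptors, and neuropilins are co-receptors through which several secreted semaphorins reach a plexin. Plexins act on the cytoskeleton and on integrin adhesion through a GTPase-activating domain for Ras-family proteins and through partner enzymes. In the hippocampus these genes are known for the lamination of mossy fibres and for the control of dendritic spines and synapses, also on granule cells born in the adult. The genes described here are 10 of this family, chosen by name: the ligands Sema3a, Sema3e, Sema5a, Sema6d and Sema7a, the receptors Plxna1, Plxna2 and Plxna4, and the neuropilins Nrp1 and Nrp2. Each symbol matched 1 gene of the 55401 in the count files, and all 10 passed the filter on low counts that left 19969 genes.

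RNA-seq was made of the dorsal hippocampus of 6 WT mice, of which 3 had received Control-ASO and 3 Snhg11-ASO. Antisense oligonucleotides (ASO) pair with an RNA and lead RNase H to cleave it, and the target of Snhg11-ASO is the long non-coding RNA Snhg11, while Control-ASO has a scrambled sequence. By the study's methods the mice were WT littermates from the Ts65Dn colony, aged 4 months, that received 50 μg per hemisphere into the dentate gyrus, and the dorsal part of the hippocampus was taken 3 days later. All cell types of that tissue, inside and outside the dentate gyrus, are therefore in each sample, and in such bulk samples fewer cells of a type and less RNA per cell cannot be told apart.

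Gene counts per sample lay between 28951250 and 43997537 read pairs, of which 35983 to 56039 fell on the 10 genes together. Levels are given as CPM (counts brought to a common library total and scaled by TMM). Snhg11 itself was at 209 to 551 CPM under Control-ASO and at 65.4 to 139 CPM in Snhg11-ASO samples. Snhg11-ASO replicate 1 stood apart, with rank correlations across genes of 0.955 to 0.959 with the other samples, against 0.979 to 0.991 among those, so results are also given without it where that changes them. Neuronal markers, which include Slc17a7 and Gad1 of neuron subtypes, summed to 3363 to 3555 CPM under Control-ASO and to 2882 to 3345 CPM under Snhg11-ASO. This was the 1 marker list whose sums did not overlap, with 6 of 8 markers lower and a median log2 fold change of -0.17. For 4 of the 8 the groups did not overlap, 3 lower and 1 higher, against 15.4% of all genes tested. Oligodendrocyte markers summed to 1606 to 2965 CPM and 1668 to 3658 CPM, with 8 of 8 higher and a median of 0.30. The markers of granule cells summed to 411 to 482 CPM under Control-ASO and 427 to 531 CPM under Snhg11-ASO, with 5 of 8 lower and a median of -0.02. Those of pyramidal cells summed to 243 to 341 and 288 to 352 CPM, respectively, with 6 of 7 higher and a median of 0.37. Oligodendrocyte precursor markers summed to 159 to 191 and 91.9 to 179 CPM, with 4 of 6 lower and a median of -0.18. For 2 of these 6 the groups did not overlap, both lower. Choroid plexus markers, which lie outside the hippocampus proper, ranged from 36.8 to 1907 CPM in Control-ASO and from 68.4 to 1303 CPM in Snhg11-ASO, with the high samples in both groups and 8 of 8 markers lower. The part of these shifts in the results below was not tested.

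None of the 10 genes was called as different between Snhg11-ASO and Control-ASO. The quasi-likelihood test of edgeR, adjusted over all 19969 genes by Benjamini-Hochberg, called 0 of the 10 genes (smallest adjusted p = 0.697), as it called 0% of all genes. The smallest adjusted p over all genes was 0.237 in edgeR, so Snhg11 itself was not called by this test either. The absence of a call therefore does not show that a gene was unchanged. At an unadjusted p under 0.05 there were 0 of the 10, against 8.11% of all genes tested, and DESeq2 called 0 of the 10, against 1.29% of all genes. The ranges of the groups overlapped for each of the 10 genes. Over all genes they did not overlap for 15.4% (7.70% lower and 7.73% higher in Snhg11-ASO). With only 10 genes, a count of 0 is near such shares and does not set these genes apart. Log2 fold changes of the 10 genes ran from -0.11 to 0.28 with a median of 0.03, 4 lower and 6 higher, and the median over all genes was 0.01.

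The 95% intervals of all 10 genes included no change and lay within a 2-fold change in either direction, between 0.60 and 1.59 times the Control-ASO level. For 8 of the 10, all but Sema3a and Nrp1, the interval lay between 0.67 and 1.5 times, which was true of 37.4% of all genes tested. The median standard error (SE) of the log2 fold change was 0.15 for the 10 genes and 0.22 for all genes. These comparisons are between genes of unlike abundance. By level per exonic length, all of the 10 but Sema3a stood at percentiles 73.1 to 93.1 of the genes tested. Against genes at a mean of at least 5 CPM, their median coefficient of variation was 16.6% against 8.23% in Control-ASO. In Snhg11-ASO it was 12.9% against 13.5%.

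**Figure D1:**
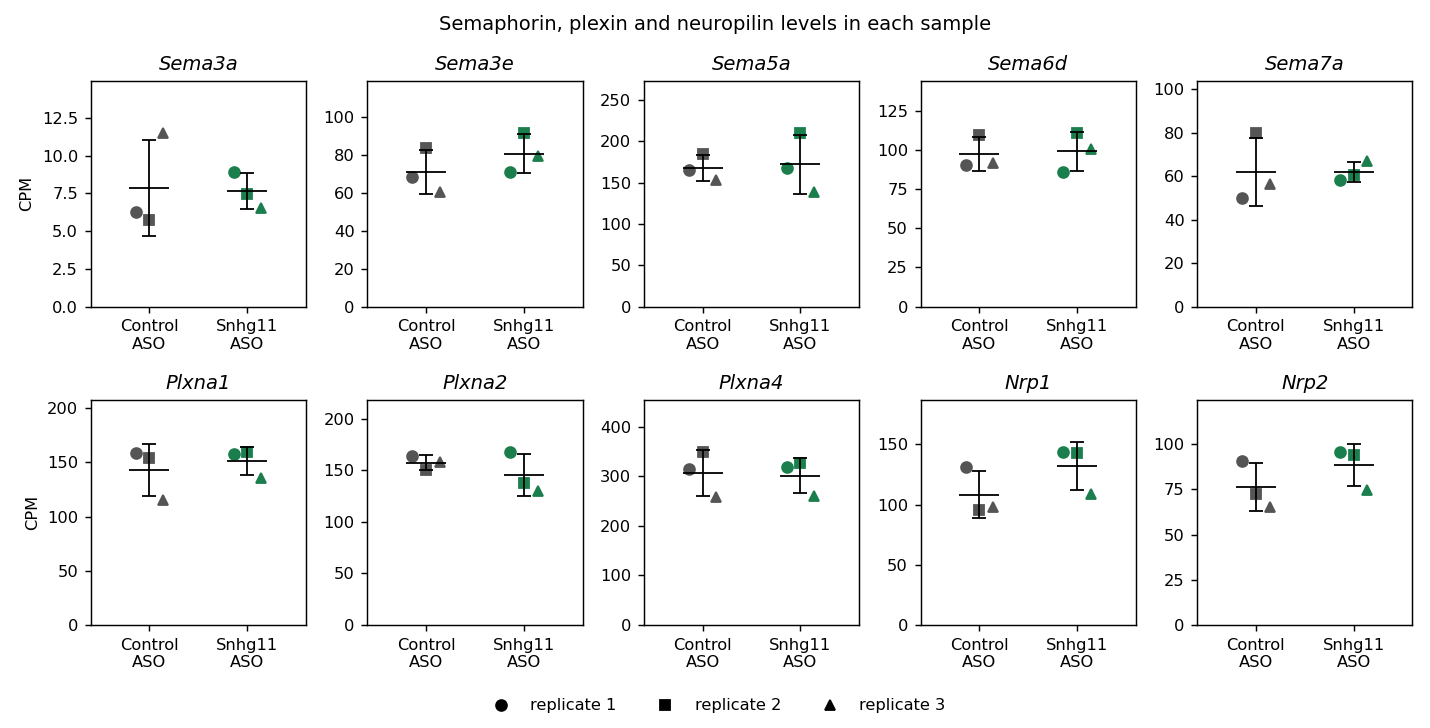
CPM of the 10 genes in each sample (vertical axes from 0, 1 panel per gene), with the symbol giving the replicate number, the horizontal line the group mean and the bars the SD of 3 samples. In every panel the Control-ASO and Snhg11-ASO samples overlap, and the neuropilins in the last 2 panels show the largest fold between means, at 108 and 132 CPM for Nrp1 and 76.3 and 88.3 CPM for Nrp2.

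Among the ligands, Sema3a and Sema3e are secreted class 3 semaphorins, and both genes lie on chromosome 5 (mm10), plus strand. Sema3a (ENSMUSG00000028883; 13125414 to 13602565) repels growing axons through Nrp1 and class A plexins and also occurs in perineuronal nets. It was at 6.29, 5.74 and 11.5 CPM in Control-ASO replicates 1 to 3 and at 8.89, 7.49 and 6.55 CPM under Snhg11-ASO replicates 1 to 3. Control-ASO samples lay both above and below all Snhg11-ASO samples, and Control-ASO replicate 3 alone held the high end. The log2 fold change was -0.04 (95% interval -0.74 to 0.66), the widest interval of the 10, with 185 to 388 counts per sample, and it was 0.34 without Control-ASO replicate 3.

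Sema3e (ENSMUSG00000063531; 14025276 to 14256689) signals through Plxnd1 and can do so without a neuropilin. It was at 68.2, 83.3 and 60.6 CPM under Control-ASO and at 71.0, 91.4 and 79.1 CPM under Snhg11-ASO replicates 1 to 3. In each group replicate 2 was the highest sample, and 2 of the 3 Snhg11-ASO samples lay below the highest Control-ASO sample. The log2 fold change was 0.19 (95% interval -0.16 to 0.54; adjusted p = 0.771 from edgeR). It was 0.08 without Control-ASO replicate 3 and 0.32 without Control-ASO replicate 2. Its receptor gene Plxnd1 had a log2 fold change of -0.16 (adjusted p = 0.860 from edgeR). Plxnd1 was at 22.1, 19.6 and 26.0 CPM under Control-ASO and at 26.6, 16.4 and 17.6 CPM under Snhg11-ASO. Snhg11-ASO replicate 1 was thus its highest sample and replicates 2 and 3 its lowest.

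Sema5a and Sema6d are membrane-spanning semaphorins. Sema5a (ENSMUSG00000022231; chromosome 15, 32244810 to 32696341, plus strand) carries thrombospondin repeats and limits excitatory synapse number on granule cells through Plxna2. It was at 165, 185 and 153 CPM under Control-ASO and at 168, 210 and 139 CPM under Snhg11-ASO replicates 1 to 3. The Snhg11-ASO samples spread on both sides of the Control-ASO range, so that the SD was 35.6 against 16.3 CPM and the log2 fold change 0.04 (95% interval -0.34 to 0.42). Sema6d (ENSMUSG00000027200; chromosome 2, 124089969 to 124667770, plus strand), a ligand of Plxna1, was at 90.8, 110 and 91.6 CPM under Control-ASO and at 86.3, 111 and 101 CPM under Snhg11-ASO. The ranges of Sema6d nearly coincided, with a log2 fold change of 0.02 (95% interval -0.28 to 0.33).

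Sema7a (ENSMUSG00000038264; chromosome 9, 57940112 to 57962865, plus strand) is held at the membrane by a lipid anchor and binds integrins containing the Itgb1 chain as well as Plxnc1. It was at 50.2, 79.9 and 56.3 CPM under Control-ASO and at 58.1, 60.8 and 67.0 CPM under Snhg11-ASO replicates 1 to 3. All Snhg11-ASO samples lay inside the Control-ASO range, and the means, 62.1 ± 15.7 and 62.0 ± 4.59 CPM (SD, n = 3 per group), were nearly equal. The log2 fold change was 0.00 (95% interval -0.42 to 0.42). Its receptor genes had log2 fold changes of -0.62 for Plxnc1 and 0.39 for Itgb1, with adjusted p-values of 0.618 for both in edgeR. Snhg11-ASO replicate 1 was the lowest sample for Plxnc1, at 25.6 CPM, and the highest for Itgb1, at 89.2 CPM. The other Snhg11-ASO samples were at 44.8 and 40.0 CPM for Plxnc1 and at 59.8 and 63.0 CPM for Itgb1. Control-ASO samples were at 39.5 to 69.4 CPM and 49.9 to 59.3 CPM, respectively.

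The class A plexins receive class 3 semaphorins together with a neuropilin, and class 6 semaphorins directly. Plxna1 (ENSMUSG00000030084; chromosome 6, 89316314 to 89362620, minus strand) was at 159, 154 and 115 CPM under Control-ASO and at 158, 160 and 136 CPM under Snhg11-ASO replicates 1 to 3, a log2 fold change of 0.09 (95% interval -0.25 to 0.43). Replicate 3 was the lowest sample of each group. Plxna4 (ENSMUSG00000029765; chromosome 6, 32144268 to 32588192, minus strand), a receptor of Sema3a and of Sema6a in mossy fibres, was at 315, 350 and 258 CPM under Control-ASO and at 318, 326 and 261 CPM under Snhg11-ASO. All Snhg11-ASO samples were inside the Control-ASO range, with a log2 fold change of -0.03 (95% interval -0.37 to 0.31).

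Plxna2 (ENSMUSG00000026640; chromosome 1, 194618218 to 194816869, plus strand), the receptor of Sema5a and of Sema6a, was the plexin with the largest difference of the 3. It was at 164, 150 and 158 CPM under Control-ASO and at 168, 138 and 130 CPM under Snhg11-ASO replicates 1 to 3, a log2 fold change of -0.11 (95% interval -0.38 to 0.16; adjusted p = 0.817 from edgeR). Snhg11-ASO replicate 1 was the highest sample and the other 2 the lowest. Without that replicate the groups did not overlap and the log2 fold change was -0.23, with an unadjusted p of 0.0220 and an adjusted p of 0.439 in edgeR and of 0.201 in DESeq2. At that setting the groups did not overlap for 28.3% of all genes.

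Both neuropilins were at somewhat higher mean levels in Snhg11-ASO, and for both the groups overlapped. Nrp1 (ENSMUSG00000025810; chromosome 8, 128358604 to 128503363, plus strand), the co-receptor of Sema3a and also of VEGF, was at 131, 95.9 and 97.9 CPM under Control-ASO and at 144, 143 and 109 CPM under Snhg11-ASO replicates 1 to 3. The log2 fold change was 0.28, the largest of the 10 genes (95% interval -0.11 to 0.67; adjusted p = 0.697 from edgeR; two-sided exact permutation test of CPM, p = 0.200). Nrp2 (ENSMUSG00000025969; chromosome 1, 62703285 to 62818695, plus strand), the co-receptor of Sema3f, was at 90.9, 72.4 and 65.5 CPM under Control-ASO and at 95.9, 94.1 and 74.9 CPM under Snhg11-ASO. Its log2 fold change was 0.21 (95% interval -0.15 to 0.58; exact permutation test, p = 0.200, where 3 samples against 3 can reach no less than 0.10).

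Within pairs of the same replicate number, both neuropilins were higher under Snhg11-ASO in 3 of 3 pairs, as was Sema3e, and the other 7 genes were of mixed sign. Of all genes tested, 17.6% were higher in all pairs. With the replicate number as a block the log2 fold changes were 0.29 for Nrp1 and 0.22 for Nrp2 (adjusted p = 0.597 and 0.615 from edgeR).

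The overlap of the neuropilins rested on Control-ASO replicate 1 and Snhg11-ASO replicate 3. Without Control-ASO replicate 1 the log2 fold changes were 0.43 for Nrp1 and 0.35 for Nrp2, with unadjusted p-values of 0.0255 and 0.0494 and adjusted p-values of 0.951 for both in edgeR. Without Snhg11-ASO replicate 3 they were 0.40 and 0.32, with adjusted p-values of 0.594 and 0.603. With each of the other 4 samples left out, the log2 fold change was 0.20 to 0.22 for Nrp1 and 0.11 to 0.18 for Nrp2, lowest for Nrp2 without Control-ASO replicate 3. The groups of both genes did not overlap without Control-ASO replicate 1 or without Snhg11-ASO replicate 3, as was the case for 22.9% and 25.1% of all genes. Endothelial markers, a cell type that carries Nrp1, summed to 149 to 183 CPM in Control-ASO and to 156 to 174 CPM in Snhg11-ASO, all 8 of them detected, 4 lower and 4 higher.

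**Figure D2:**
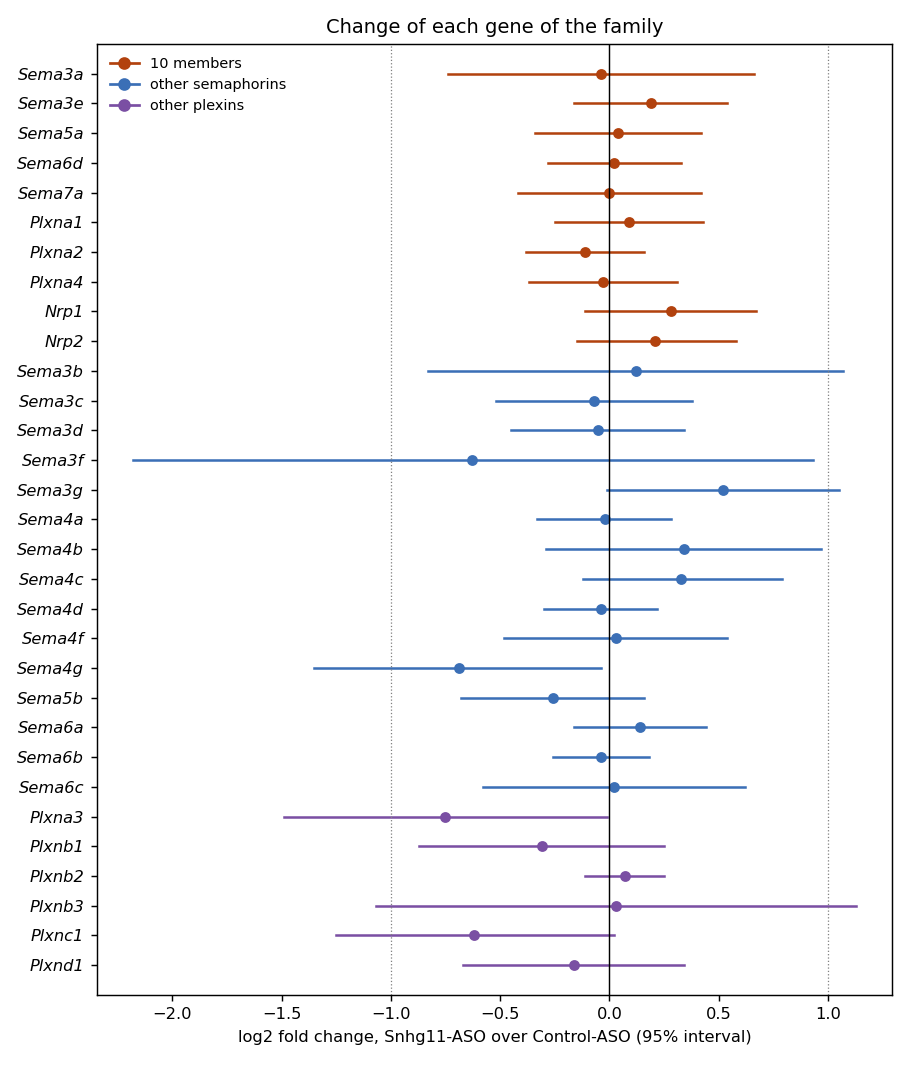
Log2 fold change of Snhg11-ASO over Control-ASO (horizontal axis, points) with its 95% interval (lines) for the 10 genes described, the 15 other semaphorins and the 6 other plexins, dotted lines marking a 2-fold change. All 10 intervals at the top cross 0 and stay within the dotted lines, while those of several less abundant genes such as Sema3f extend past them.

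The proportions of the receptors to each other do not depend on library scaling, so they were compared within each sample. Of the per-length signal of both neuropilins (CPM per kb of exon), Nrp1 took 63.6%, 61.6% and 64.4% under Control-ASO and 64.4%, 64.7% and 63.9% in Snhg11-ASO replicates 1 to 3. The neuropilin proportion thus stayed between 61.6% and 64.7% in all 6 samples, although the level of Nrp1 ranged from 95.9 to 144 CPM. The difference between the group means was 1.13 percentage points (two-sided exact permutation test, p = 0.200), and it was 0.314 without Control-ASO replicate 2 and 1.73 without Control-ASO replicate 3.

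Among the 4 class A plexins, Plxna4 held the largest share, 43.4% ± 2.89 in Control-ASO and 43.9% ± 1.16 in Snhg11-ASO (SD, n = 3 per group). Plxna1 held 32.8%, 32.0% and 29.0% under Control-ASO and 34.3%, 34.3% and 34.6% in Snhg11-ASO replicates 1 to 3. The 3 Snhg11-ASO samples lay above all Control-ASO samples by a mean of 3.15 percentage points (exact permutation test, p = 0.10, the smallest that 3 against 3 can give; adjusted over 4 plexins, p = 0.400). Without Control-ASO replicate 3 the difference was 2.05 percentage points. Plxna2 held 18.4% ± 2.36 and 17.4% ± 1.75 (SD, n = 3 per group). Plxna3, the least abundant, held 7.84%, 4.78% and 8.03% under Control-ASO and 2.36%, 5.07% and 5.27% in Snhg11-ASO, and these ranges overlapped (exact permutation test, p = 0.300, adjusted p = 0.600).

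**Figure D3:**
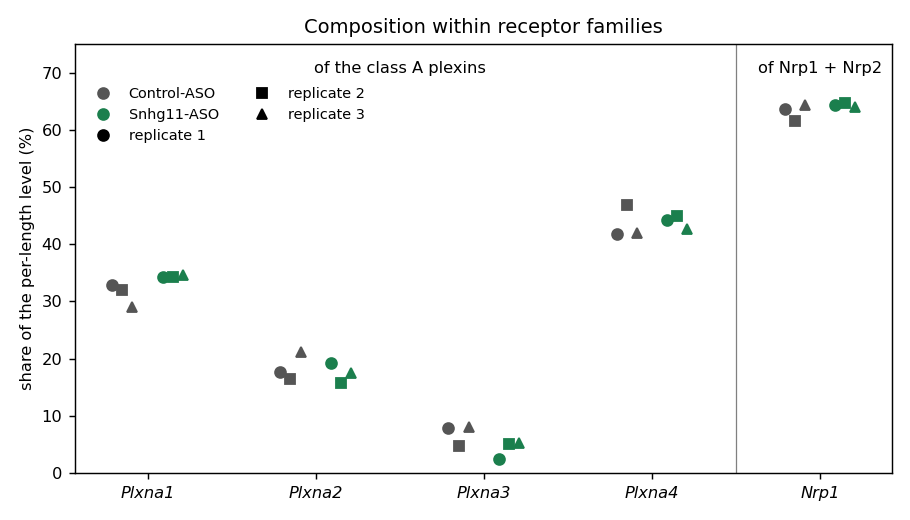
Share of each class A plexin in their summed per-length level, and of Nrp1 in that of both neuropilins (vertical axis, percent), in each sample, with the symbol giving the replicate number. The Nrp1 share lies between 61.6% and 64.7% in all samples, and the Plxna1 share is the one in which the groups do not overlap.

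Per kb of exon, Plxna4 was the most abundant of the 10 genes, at 21.6 ± 2.62 CPM per kb (SD over all 6 samples), followed by Sema7a at 18.8 ± 3.13, Plxna1 at 16.2 ± 1.99 and Nrp1 at 12.3 ± 2.23 CPM per kb. Then came Sema6d at 9.32 ± 0.992, Sema5a at 9.09 ± 1.33, Plxna2 at 8.82 ± 0.853, Sema3e at 8.14 ± 1.20 and Nrp2 at 6.95 ± 1.09 CPM per kb. The ranges of all neighbours in this order overlapped down to Nrp2. Sema3a was far below, at 0.559 ± 0.155 CPM per kb, and its highest sample, at 0.831, was under the lowest of Nrp2, at 5.53. Plxna4 lay at percentile 93.1 of 19945 tested genes with a known exonic length, and Sema3a at percentile 18.7.

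**Figure D4:**
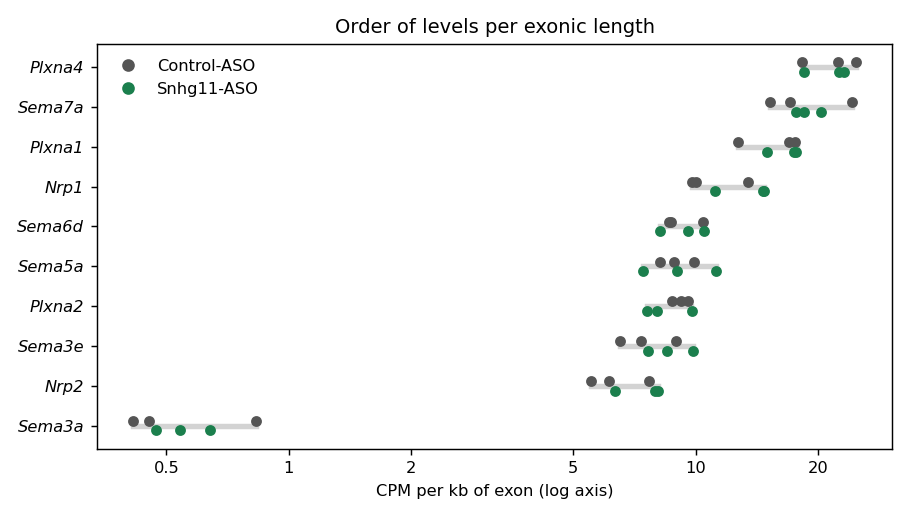
Level of the 10 genes per exonic length (CPM per kb of exon, log axis) in each of the 6 samples, ordered by the mean, with the grey line from the lowest to the highest sample. The points of 9 genes lie between 5.53 and 24.8 CPM per kb and overlap between neighbours, and Sema3a lies apart at 0.414 to 0.831.

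Several of the 10 genes are very long, which bears on this comparison because long genes as a class were lower in Snhg11-ASO. Of the 348 tested genes spanning over 400 kb of the genome, 87.1% had a negative log2 fold change, with a median of -0.29. Sema6d (578 kb), Sema3a (477 kb), Sema5a (452 kb) and Plxna4 (444 kb) belong to this class, and their log2 fold changes were 0.02, -0.04, 0.04 and -0.03. In this order they stood at percentiles 89.7, 82.2, 90.2 and 83.9 of the class. Sema3e (231 kb), at 0.19, stood at percentile 85.9 of the 638 genes of 200 to 400 kb, whose median was -0.12.

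In all, 7 of the 10 genes lay above the upper quartile of genes of like span, the exceptions being Sema7a, Plxna1 and Plxna2. This is a description of genes chosen with earlier results known and carries no test. Each sample's trend with genomic span was also removed before the fit. The log2 fold changes were then 0.26 for Sema6d, 0.23 for Sema5a, 0.16 for Sema3a, 0.16 for Plxna4 and 0.30 for Sema3e. They were 0.35 for Nrp1, 0.25 for Nrp2, -0.06 for Sema7a, 0.05 for Plxna1 and -0.02 for Plxna2. Such removal moves genes of like span together, so it restates the comparison by span and adds no support to it. None of the 10 passed (smallest adjusted p = 0.667 from edgeR), and 1 of 10, Nrp1, had an unadjusted p under 0.05, against 7.47% of all genes in that fit. With the replicate number as a block in the same fit, 5 of 10 did (Sema3e, Sema5a, Sema6d, Nrp1 and Nrp2), with a smallest adjusted p of 0.577, against 7.96% of all genes in that fit. Genes of like span share the shift from the span removal, so the 5 are not separate results.

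**Figure D5:**
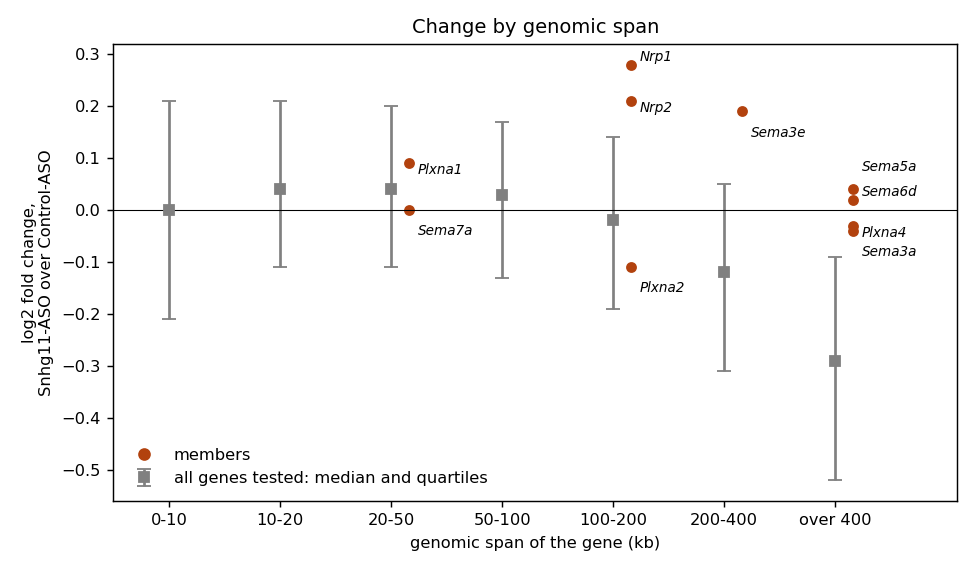
Log2 fold change (vertical axis) by class of genomic span in kb (horizontal axis), with grey squares and bars for the median and quartiles of all genes tested and red points for the 10 genes described. The medians of all genes go from 0.00 in the shortest class to -0.29 in the longest, where Sema3a, Plxna4, Sema6d and Sema5a lie between -0.04 and 0.04.

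The genes annotated inside the 10 give a further readout. There are 22 such genes, 11 on the same strand and 11 on the opposite strand. Of those on the same strand, 7 were tested, all of them unconfirmed transcripts (TEC) in introns, where reads of the host's unspliced RNA can also fall. In 5 of these the log2 fold change was negative and in 2 positive. Gm43519, in an intron of Sema3e, was at 1.67, 1.75 and 1.75 CPM under Control-ASO and at 2.28, 2.49 and 2.31 CPM under Snhg11-ASO replicates 1 to 3. All Snhg11-ASO samples were above all Control-ASO samples, with a log2 fold change of 0.45 (SE 0.20, adjusted p = 0.631 from edgeR), where Sema3e itself had 0.19. In the rest of the 7 the groups overlapped, and over all genes tested they did not overlap for 15.4%. The second intronic transcript of Sema3e, Gm43523, had a log2 fold change of 0.61 (SE 0.43), and its groups overlapped. In Plxna2 the 3 tested intronic transcripts, Gm37783, Gm37674 and Gm38036, had log2 fold changes of -0.06, -0.37 and -0.12, and their groups overlapped.

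Transcription from the opposite strand was low. Counts on that strand were at most 0.574% of the strand-resolved counts of a gene, in Nrp2, and 0% in Sema3a. Of the 11 annotated opposite-strand genes, 5 had 0 counts in all samples, and the 1 that was tested, Plxna4os1, had 5, 24 and 12 counts in Control-ASO and 0, 23 and 39 counts in Snhg11-ASO. Mir1903 shares 80 bases with an exon of Nrp1 on the same strand and is listed at 0, and reads that fall on exons of both genes are counted for neither.

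Of the 15 other semaphorins, 8 were lower and 7 higher in Snhg11-ASO, with a median log2 fold change of -0.02, and of the 6 other plexins 4 were lower and 2 higher, with a median of -0.24. None of these 21 genes passed in edgeR or DESeq2. Before adjustment, the edgeR p-value was below 0.05 for 2 of the 21, both of them lower. Of all genes tested, 8.11% fell below that level in either direction, and 4.43% did so in the lower direction. The groups did not overlap for 4 of 21, against 15.4% of all genes. Without Snhg11-ASO replicate 1, 0 of the 15 other semaphorins and 2 of the 6 other plexins had an unadjusted p under 0.05. In that edgeR fit this was so for 9.94% of all genes.

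Sema4g, a membrane-bound semaphorin, was at 14.1, 8.11 and 9.56 CPM under Control-ASO and at 4.72, 7.78 and 7.12 CPM under Snhg11-ASO replicates 1 to 3. All Snhg11-ASO samples lay below the Control-ASO samples, and the log2 fold change was -0.69 (SE 0.28), at an unadjusted p of 0.0404 and an adjusted p of 0.592 in edgeR. Plxna3, a class A plexin that works with Nrp2, was at 33.2, 20 and 27.7 CPM under Control-ASO and at 9.47, 20.6 and 18.0 CPM under Snhg11-ASO. Its groups overlapped, and the log2 fold change was -0.75 (SE 0.31), at an unadjusted p of 0.0480 and an adjusted p of 0.609 in edgeR. Snhg11-ASO replicate 1 was the lowest sample for both genes, and without it the log2 fold changes were -0.50 and -0.48, with unadjusted p-values of 0.0761 and 0.0570 in edgeR. The most abundant genes of these lists per exonic length, Sema6b at 16.1 and Plxnb2 at 8.99 CPM per kb, had log2 fold changes of -0.04 and 0.07.

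Of 34 co-receptors and cytoplasmic partners of semaphorin signalling, 13 were lower and 21 higher, with a median log2 fold change of 0.04. None passed in edgeR, and 8 of 34 had an unadjusted p under 0.05, 4 lower and 4 higher, against 4.43% and 3.68% of all genes tested. DESeq2 called 1 of 34, which was lower, as it called 0.796% of all genes lower. The groups did not overlap for 9 of 34, against 15.4% of all genes.

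The gene that DESeq2 called was Limk1, a kinase that phosphorylates cofilin. It was at 21.4, 21.3 and 23.5 CPM under Control-ASO and at 13.3, 16.8 and 15.1 CPM under Snhg11-ASO replicates 1 to 3, with all Snhg11-ASO samples below all Control-ASO samples. The log2 fold change was -0.55 (SE 0.13), with an adjusted p of 0.452 in edgeR and of 0.0243 in DESeq2. Pak1, a kinase that activates LIM kinases, was at 204, 218 and 249 CPM under Control-ASO and at 177, 183 and 157 CPM under Snhg11-ASO. Its groups did not overlap either, with a log2 fold change of -0.38 (SE 0.11, adjusted p = 0.507 from edgeR). Cfl1, which encodes cofilin and was the most abundant of these genes per length, at 121 CPM per kb, had a log2 fold change of 0.13 (adjusted p = 0.770).

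L1cam, an adhesion molecule that joins Nrp1 in the Sema3a receptor complex, was at 92.6, 71.0 and 84.6 CPM under Control-ASO and at 38.9, 62.5 and 60.9 CPM under Snhg11-ASO, a log2 fold change of -0.61 (SE 0.20, adjusted p = 0.543 from edgeR). Its groups did not overlap, and without Snhg11-ASO replicate 1, its lowest sample, the log2 fold change was -0.42. Farp1, a guanine nucleotide exchange factor that acts with class A plexins in dendrites, had a log2 fold change of -0.35 with overlapping groups (adjusted p = 0.589). Without Snhg11-ASO replicate 1 the log2 fold change of Farp1 was -0.48, with an unadjusted p of 0.00279 and an adjusted p of 0.280 in edgeR. Among the partners at higher levels, those with an unadjusted p under 0.05 in edgeR were Fes, Rap1a, Rap1b and Rhoa. Fes, a tyrosine kinase, was at 0.99. The small GTPases Rap1a and Rap1b, substrates of the plexin GTPase-activating domain, were at 0.33 and 0.29. Rhoa, a GTPase of the cytoskeleton, was at 0.29, and its groups overlapped. The adjusted p-values in this order were 0.561, 0.551, 0.599 and 0.593 in edgeR. Without Snhg11-ASO replicate 1 the log2 fold change of Rap1b was 0.18 and that of Rhoa 0.27, with unadjusted p-values of 0.0708 and 0.0626 in edgeR. Fes was at 4.28, 5.11 and 5.58 CPM under Control-ASO and at 15.6, 6.20 and 8.04 CPM under Snhg11-ASO, and its log2 fold change was 0.51 without Snhg11-ASO replicate 1.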

How the data were processed

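Dorsal hippocampus of 6 WT mice was sequenced, 3 per group, as the sample titles give them. The authors aligned paired-end reads from strand-specific, ribo-depleted libraries to mm10 (GRCm38) with STAR 2.5.2a and deposited raw counts of read pairs per gene, without normalization or pooling. The count files have STAR's own layout, although the study's methods give Rsubread, and STAR leaves out pairs that map to several places or to exons of more than 1 gene. The annotation release behind the counts is not given in the sources used here. Counts on the reverse strand were used, which held 96.2% to 96.8% of strand-resolved counts. The 4 lines that name no gene held 43.5% to 51.4% of all pairs and were left out.

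Gene symbols, positions and merged exon lengths came from GENCODE M21 on GRCm38, which matched 55141 of 55401 identifiers. Genes were filtered with filterByExpr (minimum count 10), scaled with TMM (factors 0.982 to 1.02) and compared with edgeR's quasi-likelihood test (R 4.3.3, edgeR 4.0.16) with Benjamini-Hochberg adjustment at 0.05. Standard errors were derived from each log2 fold change and its F value, and 95% intervals from these and the test's degrees of freedom. The fits were also run on simulated counts. These had the same dispersion for all genes and no outlying sample, unlike the data, so they do not show how the fits behave here. P-values measure the spread between these mice. DESeq2 1.42.0 was the alternative test. Other alternatives were DESeq2's size factors, counts of both strands, no low-count filter, the replicate number as a block, removal of each sample's trend with genomic span (alone and with the block), and leaving out each sample. DESeq2 without each Snhg11-ASO sample was added after the results were seen, as was the fit without Snhg11-ASO replicate 1 for genes outside the 10. The study removed 1 Snhg11-ASO sample that it does not name, and all were kept here. Control-ASO and Snhg11-ASO samples that share a number deviated together from the group means (r = 0.297, 0.179 and 0.103 across genes). Control-ASO replicate 2 and Snhg11-ASO replicate 3, with different numbers, gave 0.188, so the pairing is a weak hint from the values, and the labels do not say what a number stands for. The tests reported are unpaired, and the block is an alternative.

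The 10 genes and all lists were chosen with earlier results of these data known. Besides the 10, genes named are those of the family and partner lists with an unadjusted p under 0.05 and the most abundant per list. Plxnd1, Plxnc1, Itgb1, Sema3f, the genes inside the 10 and those in the closing section were named after their values were seen.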

Additional observations from a re-analysis of the deposited data

Results flagged for a closer look

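Gm29083, a gene annotated on the opposite strand of Nrp2 without sharing exon bases with it, did not pass the low-count filter and entered no comparison above. It had 3, 9 and 4 counts in Control-ASO and 17, 22 and 12 counts in Snhg11-ASO replicates 1 to 3, or 0.102, 0.268 and 0.119 against 0.446, 0.526 and 0.275 CPM. It was listed for a closer look because every Snhg11-ASO sample lay above every Control-ASO sample, with a ratio of the group means of 2.55 (exact permutation test, p = 0.10, the smallest that 3 against 3 can give). In edgeR without the filter its log2 fold change was 1.31 with an SE of 0.55, at an unadjusted p of 0.0360 and an adjusted p of 0.723. The gap between the groups, 0.268 against 0.275 CPM, is less than the worth of 1 read pair. Nrp2 itself had a log2 fold change of 0.21. Without the filter the groups did not overlap for 11.3% of all genes. Another unfiltered gene, 2900035J10Rik inside Plxna2, separated in the other direction. It was at 0.204, 0.149 and 0.208 CPM in Control-ASO and at 0.131, 0.144 and 0.137 CPM in Snhg11-ASO (exact permutation test, p = 0.10). These were 6, 5 and 7 counts against 5, 6 and 6, and the gap between the groups is again less than 1 read pair. In edgeR without the filter the log2 fold change of 2900035J10Rik was -0.44 with an SE of 0.56, at an unadjusted p of 0.447.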

How the results depend on the processing

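None of the 160 values of the 10 genes under 16 alternatives passed the threshold, and 135 kept their direction. Of the 25 that turned, the largest was 0.34. With the replicate block Sema3a was at 0.02 and Sema7a at 0.02, and the block changed no call. After removal of the span trend Sema3a was at 0.16 and Plxna4 at 0.16, and with the block as well at 0.23 and 0.17. With 1 sample left out in edgeR the ranges were -0.22 to 0.34 for Sema3a, -0.13 to 0.17 for Sema5a, -0.06 to 0.12 for Sema6d, -0.14 to 0.22 for Sema7a, -0.05 to 0.16 for Plxna1, -0.15 to 0.07 for Plxna4, 0.08 to 0.32 for Sema3e, -0.23 to -0.04 for Plxna2, 0.20 to 0.43 for Nrp1 and 0.11 to 0.35 for Nrp2. In DESeq2 without Snhg11-ASO replicate 1 Sema7a was at 0.04. Without replicate 2 there Sema5a was at -0.13, Sema6d at -0.06 and Sema7a at 0.01, and without replicate 3 Sema3a was at 0.06 and Plxna4 at 0.07. Sema3e, Nrp1 and Nrp2 stayed above 0 and Plxna2 below 0 under all 16. The number of the 10 genes whose groups did not overlap was 0 to 2 with 1 sample left out, against 22.7% to 28.3% of all genes. With the replicate block the Plxna1 share had an adjusted p of 0.750 (exact sign flips, where 3 pairs can give no p below 0.25). With 1 sample left out the difference in share, in percentage points, ran from 2.05 to 3.91 for Plxna1, from -3.70 to -1.71 for Plxna3, from 0.314 to 1.73 for Nrp1, from -1.97 to 0.317 for Plxna2 and from -0.395 to 2.16 for Plxna4. Over all genes edgeR called 0 and DESeq2 258. With 1 sample left out edgeR called 0 to 2, the 2 without Snhg11-ASO replicate 1, and DESeq2 called 347, 275 and 223 without Snhg11-ASO replicates 1, 2 and 3. The cause of these shifts was not tested. Sema3a had the fewest counts of the 10, 185 to 388 per sample, and the widest interval, with a coefficient of variation of 40.7% in Control-ASO.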

Other observations

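Plxnb3, Plxnc1 and Plxnb1 had their lowest level in Snhg11-ASO replicate 1, and they were picked out after their values were seen. Plxnb3, a class B plexin known from oligodendrocytes, was at 20.9, 29.2 and 19.9 CPM in Control-ASO replicates 1 to 3 and at 8.45, 31.8 and 31.3 CPM in those of Snhg11-ASO. Plxnc1, the receptor of Sema7a, was at 69.4, 39.5 and 60.6 CPM and at 25.6, 44.8 and 40.0 CPM, and Plxnb1, a receptor of Sema4d, at 102, 84.4 and 83.4 CPM and at 47.4, 93.8 and 76.5 CPM. Snhg11-ASO replicates 2 and 3 lay above all Control-ASO samples for Plxnb3 and within the Control-ASO range for Plxnc1. For Plxnb1 replicate 2 lay within that range and replicate 3 below it. Oligodendrocyte markers summed to 1668 CPM in Snhg11-ASO replicate 1 and to 3658 and 2890 CPM in replicates 2 and 3, against 1606 to 2965 CPM in Control-ASO, and oligodendrocyte precursor markers to 91.9 CPM against 160 and 179 CPM, and 159 to 191 CPM in Control-ASO. Their part in these levels was not tested.

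Between Control-ASO samples the 10 genes had a higher median variation than all genes of at least 5 CPM, a difference that was not tested. Their median coefficient of variation was 16.6% in Control-ASO, against 8.23% over the 11936 genes at a mean of at least 5 CPM, and 12.9% in Snhg11-ASO, against 13.5%. It ranged in Control-ASO from 4.20% for Plxna2 to 40.7% for Sema3a.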
